A study of Homo sapiens with 4 samples.

Results

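The 10 genes described here handle iron or bind it: LCN2, FTH1, FTL, TFRC, SLC40A1, SLC11A2, HMOX1, IREB2, ACO1 and NCOA4, out of 57500 genes in the count files, each matched by its symbol in GENCODE release 29. They were chosen by their function with values of the same libraries in view, since FTH1 had the most counts of any gene in parental cells and LCN2 is a gene that the study names. Their levels in parental cells against clones are therefore given as a description without a test. SUM159 is a triple-negative, metaplastic breast cancer cell line, and 1 library of parental SUM159 cells was set against 1 library from each of 3 NOS2KO clones, numbered 1, 5 and 6. The NOS2KO cells came from SUM159 cells that received a double nickase plasmid against NOS2, the gene of inducible nitric oxide synthase, and were picked as puromycin-resistant clones by their iNOS protein and by nitrite and nitrate. Each clone has 1 library without a replicate, the parental cells were not described as passing through selection, and knockout and clonal selection cannot be told apart here. All 4 cultures grew in DMEM with serum, without a stated addition or removal of iron.

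The libraries held between 90467395 and 122171287 counts on genes. NOS2 mRNA does not check the labels, since parental cells had 2 counts, clones 1 and 6 had 3 and 1, and the library labelled clone 5 had 18. A list of 9 markers for a mesenchymal or basal breast carcinoma line summed to 5068 CPM in parental cells and 7606 to 8162 in the clones. VIM and FN1 led it in all 4 libraries, so the sum does not stand for each gene. ZEB1 was lower in each clone, at 39.5 to 57.8 CPM against 83.7. KRT8 and KRT18 were higher in each, at 416 to 806 against 254 and 326 to 467 against 303. KRT14 was at 3.96 CPM in parental cells and at most 0.209 in the clones, and KRT5 lay between 0.0507 and 5.75 CPM. Of the receptors that are low in triple-negative tumors PGR had at most 3 counts, ESR1 had 9 to 79 and ERBB2 lay at 48.3 CPM in parental cells and 55.6 to 106 in the clones. Of the leukocyte markers CD3E had at most 8 counts in a library, and 5 erythroid markers summed to at most 0.221 CPM. The summed level of the leukocyte list was 18.3 CPM in parental cells and 55.6 to 111 CPM in the clones. In parental cells most of it came from CD14, at 12.8 CPM beside 4.45 for PTPRC. In the clones most of it came from PTPRC, at 41.7 to 105 CPM, while CD14 was lower than in parental cells, at 2.29 to 11.3 CPM. The part of these markers in the results below was not tested.

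Iron enters most cells as ferric iron on transferrin, which the transferrin receptor takes into endosomes, and a divalent metal transporter then moves it to the cytosol. Iron that is not used is stored in ferritin, a shell of heavy and light chains, and ferroportin is the only known exporter of iron from cells. Iron regulatory proteins bind hairpins called iron-responsive elements when iron is scarce, which blocks translation from a hairpin in the 5′ untranslated region and protects the mRNA from decay when hairpins are in the 3′ untranslated region. Lipocalin 2 binds siderophores, the small iron carriers of bacteria, and is secreted by epithelial cells and neutrophils in inflammation.

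The hairpins set the ferritin chains and ferroportin apart from the transferrin receptor, so those that a search found in the members' transcripts are shown. The pattern was CNNNNNCAGTGNNNNNN on the sense strand, with the 5 bases after the unpaired C able to pair with the last 5 (G with T allowed), and capitals mark the unpaired C and the loop. It occurred in the 5′ untranslated region of 0.158% of 19652 coding genes and in the 3′ untranslated region of 0.651%. Sequences are from GENCODE release 29 transcripts on GRCh38, 5′ to 3′ and written as DNA. In the 5′ untranslated regions lie the site of FTH1 at chr11:61967573-61967602 (minus strand), that of FTL at chr19:48965335-48965364 (plus strand) and that of SLC40A1 at chr2:189580660-189580689 (minus strand).
FTH1: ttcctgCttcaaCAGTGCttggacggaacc
FTL: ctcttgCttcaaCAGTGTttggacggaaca
SLC40A1: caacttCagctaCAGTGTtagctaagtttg
TFRC held 4 such sites in its 3′ untranslated region on the minus strand, shown in the order of the transcript, at chr3:196050978-196051007, chr3:196050574-196050603, chr3:196050509-196050538 and chr3:196050462-196050491.
TFRC site a: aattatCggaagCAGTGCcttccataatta
TFRC site b: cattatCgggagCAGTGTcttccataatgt
TFRC site c: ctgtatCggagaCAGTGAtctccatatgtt
TFRC site d: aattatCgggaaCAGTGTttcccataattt
The other 6 members, SLC11A2 among them, had no match. This says only that these letters with full pairing are not in the untranslated regions of their coding transcripts in the GENCODE basic set. An iron-responsive element with other letters or pairing would be missed.

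Ferritin mRNA was the largest difference in amount among these genes, and it lay in the heavy chain. FTH1 (ENSG00000167996, chromosome 11 of GRCh38 from 61959718 to 61967660) encodes the ferroxidase chain of ferritin. It had 2344357 counts in parental cells, 287490 and 345715 in clones 1 and 6, and 260418 in the library labelled clone 5. As CPM, counts scaled to the TMM-adjusted library size, its level was 25935 in parental cells and 2819 ± 597 (SD, n = 3) in the clones. All 3 clones were far below the parental library and close to each other. In bulk RNA fewer cells with a transcript and less of it per cell cannot be told apart. The log2 ratio to parental cells was -3.37 and -2.89 in clones 1 and 6 and -3.41 in the library labelled clone 5 (exact 95% interval -3.41 to -3.40), where the intervals cover counting error only. FTH1 took 2.59% of all counts in the parental library, where it ranked first among the genes, and 0.235% to 0.355% in the clones, where it ranked 24, 25 and 10 in the order of clone numbers.

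FTL (ENSG00000087086, chromosome 19 from 48965301 to 48966878), the light chain, which helps the mineral core to form, did not share a direction in the clones. It had 4053 CPM in parental cells, 2465 and 4281 in clones 1 and 6, and 1755 in the library labelled clone 5. Clone 6 was slightly above the parental library and the other clones were below it. The fitted log2 fold change of the clones over the parental library was -0.52 (standard error 0.60) for FTL and -3.20 (standard error 0.44) for FTH1.

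The balance of the chains was therefore on opposite sides of equality in parental cells and clones. Per kilobase of exon, FTH1 was 2.77 times FTL in parental cells, 0.440 times and 0.354 times in clones 1 and 6, and 0.602 times in the library labelled clone 5. Each clone had less heavy-chain than light-chain mRNA per length, and the parental library had more. The ratio depends on the length, because the exons of FTH1 in the files cover 2030 bases over all its transcripts. With the 1229 bases of a single FTH1 transcript and the 878 bases of the FTL transcript in GENCODE, a choice made after the data were seen, it was 4.57 in parental cells and 0.726, 0.994 and 0.585 in the clones in the order of their numbers, so that in the library labelled clone 5 the chains were then about equal. The levels of the chains together were 17392 CPM per kb in parental cells and 4616 ± 1771 (SD, n = 3) in the clones.

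**Figure D1:**
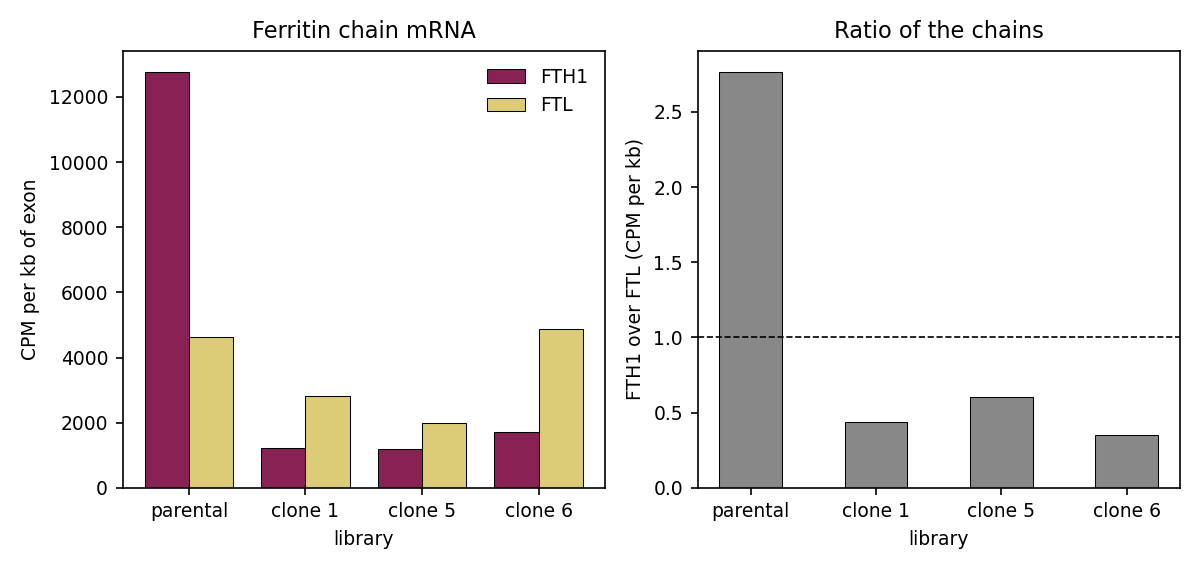
Level of FTH1 and FTL in CPM per kb of exon (left) and their ratio (right) in 1 parental and 3 NOS2KO libraries, with a dashed line at 1. The FTH1 bar drops from 12776 CPM per kb in the parental library to between 1203 and 1727 in the clones, and the ratio from 2.77 to at most 0.602.

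FTH1 has many processed pseudogenes, copies of its mRNA in the genome, so reads could be assigned to the wrong copy. The files list 25 FTH1-derived pseudogenes, which together had 3261 counts in parental cells, 549 and 592 in clones 1 and 6, and 475 in the library labelled clone 5. This is 0.139% of the counts of FTH1 in parental cells and 0.171% to 0.191% in the clones. Added to FTH1, they left its fitted log2 fold change at -3.20. Any reads left uncounted because they match several copies would show in neither count, and their number is not known. The 3 with the most counts, FTH1P8, FTH1P2 and FTH1P7, were 97.5%, 97.6% and 97.3% identical to the spliced FTH1 mRNA over the aligned length. For the 9 FTH1-derived pseudogenes with at least 50 counts over the 4 libraries, where most counts came from parental cells, the log2 ratios of the clones to parental cells lay between -3.59 and -1.39. Whether such reads came from the pseudogenes or from FTH1 cannot be told from these counts. The 16 FTL-derived pseudogenes had 143 counts in parental cells and 105 to 196 in the clones. FTH1 also overlaps BEST1 on the other strand, which had 352 counts in parental cells and 73 to 159 in the clones, far below FTH1.

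**Figure D2:**
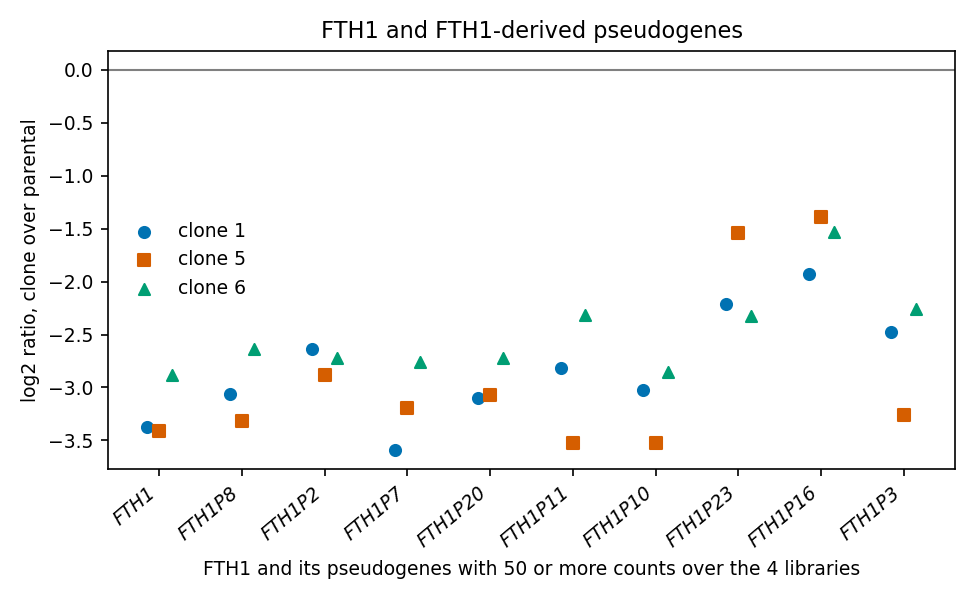
Log2 ratio of each NOS2KO clone to the parental library for FTH1 and for its 9 pseudogenes with 50 or more counts summed over the 4 libraries. The pseudogene points lie between -3.59 and -1.39 and those of FTH1 between -3.41 and -2.89.

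Both members of the uptake route were lower in each clone. TFRC (ENSG00000072274, chromosome 3 from 196027183 to 196082189), the transferrin receptor, had 977.7 CPM in parental cells, 393.1 and 458 in clones 1 and 6, and 360.3 in the library labelled clone 5. The clones lay close together, at 36.9% to 46.8% of the parental level, with a fitted log2 fold change of -1.28 (standard error 0.32). SLC11A2 (ENSG00000110911, chromosome 12 from 50979401 to 51028566), the divalent metal transporter of endosomes, had 129.7 CPM in parental cells, 41.6 and 55.6 in clones 1 and 6, and 52.1 in the library labelled clone 5. Its fitted log2 fold change was -1.38 (standard error 0.30), and no clone was above 42.8% of the parental level. The mRNA with 5′ hairpins and the mRNA with 3′ hairpins were thus both lower in the clones for FTH1 and TFRC, but by different amounts. Within a library the level of FTH1 per kb was 103.1 times that of TFRC in parental cells and 27.0 ± 2.54 times (SD, n = 3) in the clones. The size of these ratios depends on the exon lengths used.

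SLC40A1 (ENSG00000138449, chromosome 2 from 189560579 to 189583758), ferroportin, was near the limit of detection. It had 7 counts in parental cells, 1 and 6 in clones 1 and 6, and 60 in the library labelled clone 5. The floor was 3 counts, which is 0.0246 to 0.0332 CPM by library sizes without TMM scaling. The library labelled clone 5 stood alone, at 0.563 CPM, and the gene passed the filter on low counts only with that library, since it was not kept when that library was left out. Its log2 ratio to the parental library was 2.86 (exact 95% interval 1.73 to 4.24) in that library, -3.15 (-8.64 to -0.19) in clone 1 and -0.35 (-2.20 to 1.45) in clone 6.

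HMOX1 (ENSG00000100292, chromosome 22 from 35380361 to 35394214), heme oxygenase, releases iron from heme and is induced by oxidative stress. It had 299.4 CPM in parental cells, 32 and 82.5 in clones 1 and 6, and 42.1 in the library labelled clone 5. All clones were lower, and clone 6 less so than the others, with 27.6% of the parental level against 10.7% in clone 1 and 14.1% in the library labelled clone 5. The fitted log2 fold change was -2.52 (standard error 0.60). HMOX1 and TFRC had nearly the same level in the parental library, 124.5 and 124.0 CPM per kb, while in each clone TFRC was higher. The parental levels differed by less than their counting intervals. These intervals do not cover the choice of exon length, which was 2405 bases for HMOX1 and 7887 for TFRC.

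The genes of the regulators had fitted log2 fold changes smaller in size than those of FTH1, TFRC, SLC11A2 and HMOX1. ACO1 was still at 46.9% of the parental level in the library labelled clone 5. IREB2 (ENSG00000136381, chromosome 15 from 78437431 to 78501456), iron regulatory protein 2, had 95.1 CPM in parental cells, 76.2 and 106.2 in clones 1 and 6, and 94.8 in the library labelled clone 5, so that the parental library lay among the clones. ACO1 (ENSG00000122729, chromosome 9 from 32384603 to 32454769) encodes iron regulatory protein 1, which is the cytosolic aconitase while it carries an iron-sulfur cluster. Its level was 155.3 CPM in parental cells, 170.9 and 107.3 in clones 1 and 6, and 72.9 in the library labelled clone 5, without a shared direction. NCOA4 (ENSG00000266412, chromosome 10 from 46005088 to 46030714), the receptor that delivers ferritin to lysosomes for iron release, was the sole member above the parental level in all 3 clones, with 144.7 CPM in parental cells, 208.5 and 218.1 in clones 1 and 6, and 168.2 in the library labelled clone 5. The fitted log2 fold change was -0.04 (standard error 0.31) for IREB2, where other scalings reached 0.07, -0.41 (0.53) for ACO1 and 0.45 (0.31) for NCOA4.

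LCN2 (ENSG00000148346, chromosome 9 from 128149071 to 128153455), the siderophore binder, had 1783 counts in parental cells, 29 in clone 1 and 2 in each of the other clones. Its parental level of 12.3 CPM per kb was near that of SLC11A2, at 13.2, and it came to 0.158 and 0.0127 in clones 1 and 6 and to 0.0117 in the library labelled clone 5, with clone 6 and the library labelled clone 5 under the floor of 3 counts. Clone 1 retained 1.28% of the parental level (exact 95% interval 0.856% to 1.85%). The log2 ratio to parental cells was -9.93 (-12.97 to -8.07) in clone 6 and -10.04 (-13.08 to -8.18) in the library labelled clone 5. The fitted log2 fold change was -7.63 (standard error 1.49), and -9.89 without clone 1. Against the library labelled clone 5 the log2 ratio of clone 1 was 3.75 (exact 95% interval 1.77 to 6.86). MPO and ELANE, markers of neutrophils, had 9 to 44 and 51 to 228 counts over the 4 libraries.

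The RefSeq promoter of LCN2 is shown because LCN2 differed most in ratio and is known to be induced through NF-kappaB. It covers the 250 bases before the RefSeq start, chr9:128149203-128149452 on the plus strand of GRCh38.p14, which lies inside the interval of the gene in the files, and capitals mark the match to the NF-kappaB consensus.
LCN2 promoter: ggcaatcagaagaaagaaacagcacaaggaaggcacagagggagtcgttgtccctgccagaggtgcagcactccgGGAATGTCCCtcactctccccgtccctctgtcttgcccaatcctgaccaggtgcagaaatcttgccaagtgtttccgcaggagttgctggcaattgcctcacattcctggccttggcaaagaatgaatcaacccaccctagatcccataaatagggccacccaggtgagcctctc
The match runs from -175 to -166 relative to the start, on the opposite strand. RefSeq promoters, reaching from 250 bases before to 50 after the start, were at hand for 8 members (LCN2, FTL, TFRC, SLC40A1, SLC11A2, IREB2, ACO1 and NCOA4), and LCN2 alone among them held this match, which 5.91% of 35116 promoters hold. Neither the AP-1 site TGACTCA, in 4.95% of promoters, nor the antioxidant response element TGACNNNGC, in 13.3%, was in any of the 8 windows on either strand. A match is a description of letters and not a bound site, and no match says only that these letters are not in this window.

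**Figure D3:**
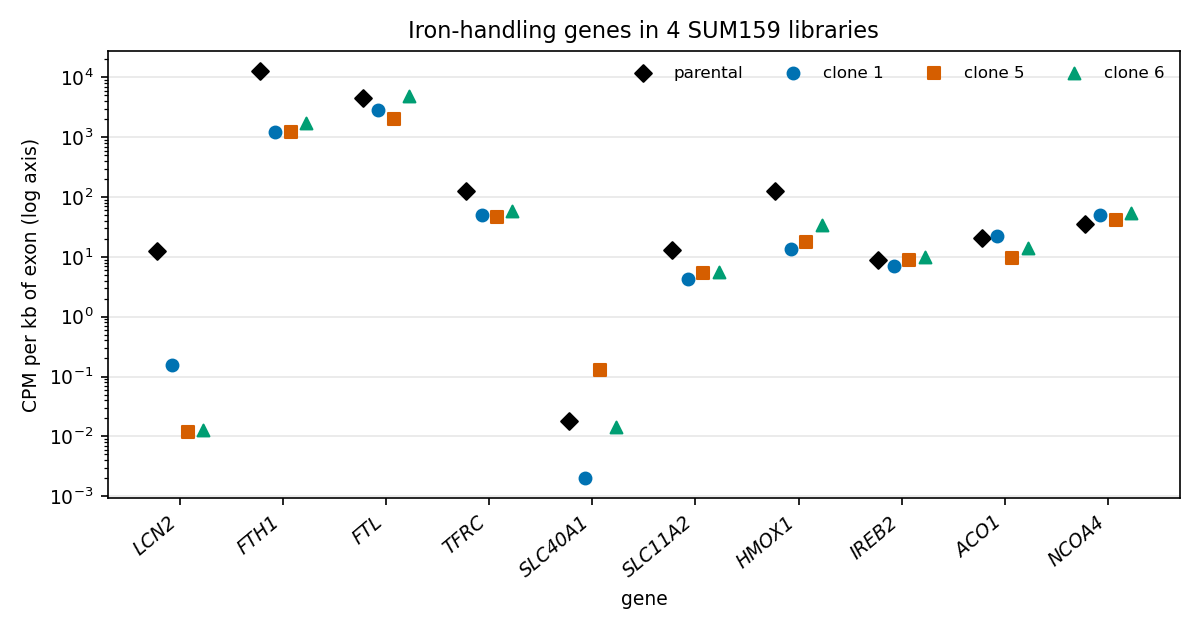
Level of the 10 genes in CPM per kb of exon, on a log axis, with 1 point for each of the 4 libraries. FTH1 and FTL stand above all others in every library, between 1203 and 12776 CPM per kb, and SLC40A1 lies at or below 0.130.

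In levels per length FTH1 and FTL led in every library, followed in parental cells by HMOX1, TFRC, NCOA4, ACO1, SLC11A2, LCN2, IREB2 and SLC40A1. All levels per kb use the exon length over all transcripts of a gene, 1598 bases for LCN2 and 10806 for IREB2. Other lengths could change the order of genes with near levels, which was not tested. By the means of the clones the order was FTL, FTH1, TFRC, NCOA4, HMOX1, ACO1, IREB2, SLC11A2, LCN2 and SLC40A1. In this order the ranges of mean ± SD over the 3 clones overlapped for TFRC and NCOA4, HMOX1 and ACO1, ACO1 and IREB2, and LCN2 and SLC40A1, although ACO1 was above IREB2 within each clone. NCOA4 lay below TFRC in the parental library, at 35.5 against 124.0 CPM per kb, and close to it in the clones, at 48.6 ± 6.49 against 51.2 ± 6.30 (SD, n = 3).

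Of the 10 members, 5 were lower in all 3 clones (LCN2, FTH1, TFRC, SLC11A2 and HMOX1), NCOA4 was higher in all 3, and the other 4 had no shared direction. Of the 10709 genes that reached 10 CPM anywhere, 37.3% were lower in all 3 clones and 27.8% higher, and by over 1 on the log2 scale 5.24% were lower and 4.26% higher. The 3 ratios of a gene share the parental library. All 10 passed the filter on low counts, SLC40A1 through the library labelled clone 5. The same 5 members met the study's criterion, an unadjusted p under 0.05 with a log2 fold change above 1 or below -1, in edgeR's quasi-likelihood test, which 9.58% of 22511 tested genes met. By adjusted p under 0.05 edgeR called none of them (0.00444% of all genes), 5 had an unadjusted p under 0.05 (11.5% of all genes), and 5 had an adjusted p under 0.05 with DESeq2's Wald test (4.86%). Since the members were chosen with this contrast known, nothing is read from these counts.

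**Figure D4:**
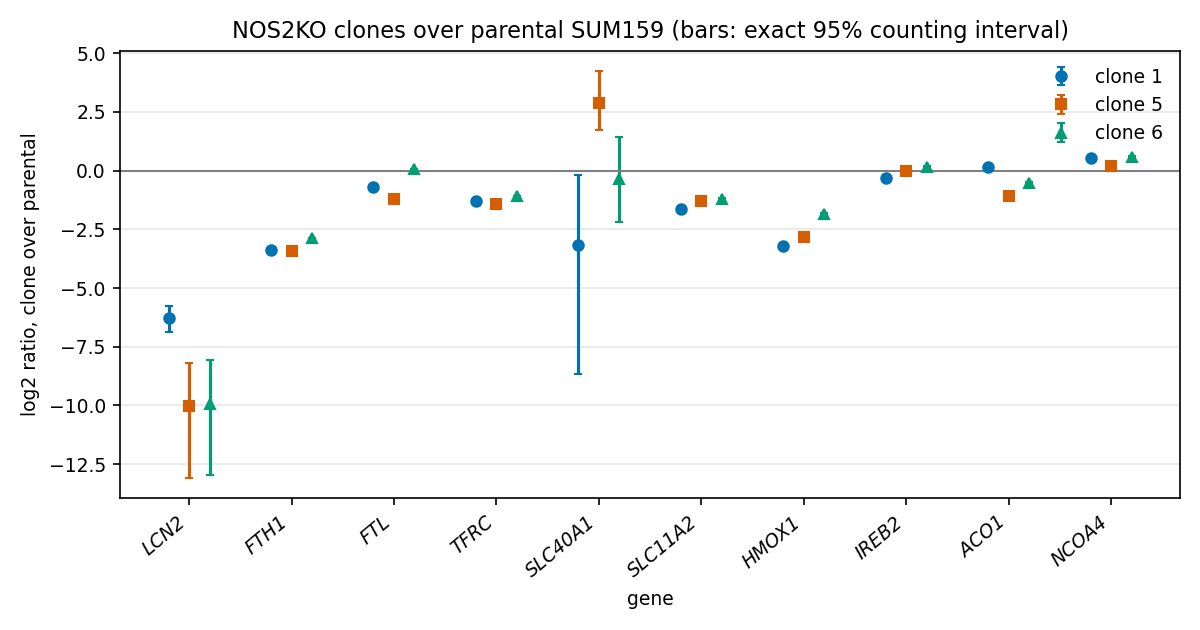
Log2 ratio of each NOS2KO clone to the parental library for the 10 genes, with exact 95% intervals for counting error. LCN2, FTH1, TFRC, SLC11A2 and HMOX1 lie below 0 in all 3 clones, NCOA4 lies above 0 in all 3, and the SLC40A1 points spread from -3.15 to 2.86.

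The clones also differed among themselves. FTL was 2.44 times and HMOX1 1.96 times as high in clone 6 as in the library labelled clone 5, and ACO1 was 2.35 times as high in clone 1 as in the library labelled clone 5. FTH1, TFRC, SLC11A2, IREB2 and NCOA4 varied by at most 1.44 times between the highest and the lowest clone. The differences in FTL, HMOX1 and ACO1 exceed counting error, but with 1 library a clone the spread between cultures of a clone is unknown. For comparison, a log2 ratio beyond 1 in either direction was found for 16.5% of genes that reached 10 CPM between clone 1 and the library labelled clone 5, 16.4% between clone 1 and clone 6, and 5.65% between clone 6 and that library.

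Genes near the members were also compared. Within 250 kb of FTH1, 9 other genes with at least 10 CPM had a median fitted log2 fold change of 0.06, from -0.98 to 1.75. Around TFRC the 3 such genes were all higher in the clones (0.42 to 0.90), and around HMOX1 4 genes lay between -0.76 and 0.49. Around SLC11A2 9 genes ranged from -1.51 to 3.23 with a median of -0.19, and around FTL 12 genes ranged from -5.54 to 1.31 with a median of 0.31. The 4 genes near SLC40A1 were all lower (-1.27 to -0.22), as were the 2 near NCOA4 (-0.29 and -0.28). The 3 genes near IREB2 lay between -0.70 and 0.74, and the 3 near ACO1 between -1.20 and 1.40. Around LCN2 14 of 16 genes were lower, with a median of -0.28 and the lowest at -1.24. Of all tested genes, without the limit of 10 CPM, 45.6% were lower and the median was 0.10. An effect of location was not tested.

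The genes with the pattern nearest to FTH1 over the 4 libraries, by the root mean square distance of the 3 log2 ratios among 10700 genes, were SMOX (0.359), ERN1 (0.371), KCNG1 (0.372), IRAK2 (0.443) and SLC3A2 (0.453). SMOX encodes spermine oxidase, ERN1 the stress sensor IRE1 of the endoplasmic reticulum, KCNG1 a potassium channel subunit, IRAK2 a kinase of interleukin 1 receptor signaling and SLC3A2 the heavy chain of amino acid transporters. SMOX had 322.3 CPM in parental cells and 29.8, 42.3 and 57.2 in the clones. For LCN2 the nearest were ADM2 (1.16), MUC5AC (1.19), INHBE (1.65), CSF3 (1.65) and IL1A (1.80), which encode a peptide hormone, a mucin, an inhibin beta subunit, a granulocyte growth factor and an interleukin. CSF3 had 1455 counts in parental cells and 3, 1 and 1 in the clones, while MUC5AC had 1390 and then 8, 4 and 3. The distances are larger for LCN2, for a reason that was not tested. Its ratios rest on 29, 2 and 2 counts in clones 1, 5 and 6.

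Beyond the 10 members, 141 other genes of iron handling were listed in 9 groups, and 128 were tested in the comparison of 3 clones with 1 parental library. The criterion was met by 20 of them (15.6%), 18 of them lower and 2 higher. Over all tested genes 9.58% met it, 5.34% on the lower side and 4.24% on the higher side, which is the comparison for each group below. The lists were chosen with earlier results of these data known, so nothing is read from the counts of a group. The median log2 fold change of the 128 genes was -0.01 (0.10 with upper quartile scaling), beside 0.10 (0.20) for all tested genes. At an adjusted p under 0.05 edgeR called none of these genes, 24 of the 128 had an unadjusted p under 0.05, beside 11.5% of all tested genes, and 14 had an adjusted p under 0.05 with DESeq2's Wald test, beside 4.86%.

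**Figure D5:**
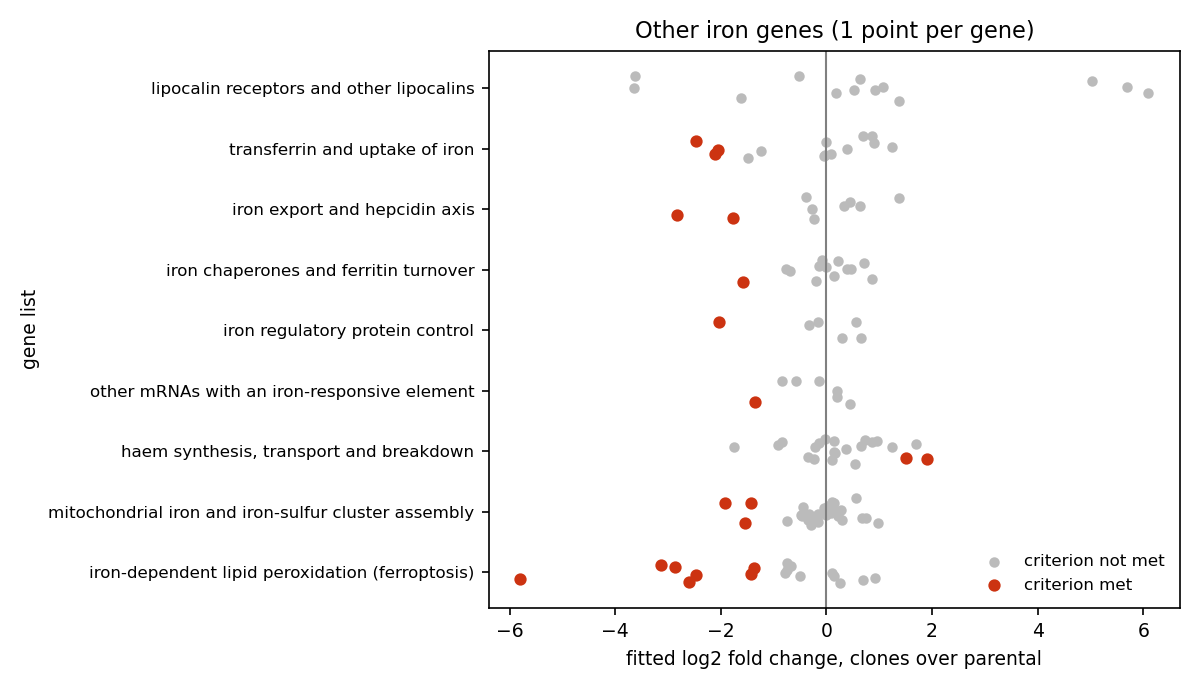
Fitted log2 fold change of the clones over the parental library for the other tested iron genes in 9 lists, 1 point per gene, with genes that met the criterion in red. The red points number 18 on the lower side and 2 on the higher side, both of the latter in heme synthesis.

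In the uptake group 3 of 14 tested genes met the criterion, all lower. SLC39A8 and SLC39A14, zinc transporters that also carry iron, had 376.3 and 271.9 CPM in parental cells and 68.1 ± 23.6 and 65.5 ± 12.3 (SD, n = 3) in the clones. STEAP2, a metalloreductase, had 78.7 CPM in parental cells and 18.3 ± 5.05 in the clones. STEAP3, the metalloreductase known to act in transferrin endosomes, did not meet the criterion and had 147.2 CPM in parental cells, 306 and 212.6 in clones 1 and 6, and 279.7 in the library labelled clone 5. In the group of export and hepcidin 2 of 9 met it, ERFE and BMP2, both lower, and ERFE, the hormone erythroferrone, had 31.1 CPM against 4.40 ± 0.809.

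Of 13 tested genes of iron chaperones and ferritin turnover 1 met the criterion, RB1CC1, an autophagy initiation factor (log2 fold change -1.59). Of 6 genes that control the iron regulatory proteins it was met by RBCK1 (HOIL-1), a ubiquitin ligase, with 595 CPM in parental cells and 144.7 ± 16.4 in the clones. Among 7 other mRNAs with a known iron-responsive element it was met by EPAS1, which encodes HIF-2alpha (log2 fold change -1.35). Of 28 genes of mitochondrial iron and iron-sulfur clusters 3 met it, HSPA9 (-1.91), SLC25A37 (-1.55) and HSCB (-1.43), a chaperone, the mitochondrial iron importer mitoferrin 1 and a co-chaperone of cluster transfer. None of 13 tested lipocalins and lipocalin receptors met it, none of them had an unadjusted p under 0.05 in edgeR's test, DESeq2 gave 1 that met the criterion, the fit without clone 1 gave 3 and that without clone 6 gave 1, and SLC22A17 and LRP2, the receptors named for LCN2, were at most at 3.22 and 4.47 CPM, each in the library labelled clone 5.

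The group of heme synthesis, transport and breakdown held the only genes above the parental level that met the criterion with TMM scaling, 2 of 22, while upper quartile scaling added 1 in the uptake group. ALAD and UROD, enzymes of porphyrin synthesis, had 19.4 and 89.6 CPM in parental cells and 72.5 ± 13.7 and 254.4 ± 60.5 (SD, n = 3) in the clones. Their log2 fold changes were 1.90 and 1.51, and edgeR gave adjusted p of 0.306 and 0.351, with ranges over the alternatives of 0.000742 to 0.739 and 0.0302 to 0.754.

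In the group of iron-dependent lipid peroxidation 7 of 17 tested genes (41.2%) met the criterion, all lower in the clones, with a median log2 fold change of -0.75. This was the highest share of the 9 groups, beside 9.58% of all tested genes, in a list chosen with earlier results of these data known. SLC7A11 and SLC3A2, the chains of the cystine importer, had 347.5 and 1471 CPM in parental cells and 57.0 ± 7.23 and 166.9 ± 35.4 (SD, n = 3) in the clones. CHAC1, which degrades glutathione, had 85.5 CPM against 1.54 ± 0.346, with a log2 fold change of -5.79 and an adjusted p from edgeR of 0.182 (1.27e-28 to 0.720 over the alternatives, the lowest with DESeq2). The others were CBS, GCH1, GCLC and GCLM, enzymes of transsulfuration, of tetrahydrobiopterin and of glutathione synthesis, with log2 fold changes of -2.87, -2.46, -1.42 and -1.38. GPX4, the peroxidase that removes lipid peroxides, had 271.7 CPM in parental cells and 296.5 to 304.8 in the clones, and ACSL4 had 169.4 against 77.4 to 146.7, both without meeting the criterion. The list holds genes known to protect from lipid peroxidation and genes known to promote it. STEAP3, SLC22A17, LRP2, GPX4 and ACSL4 were named after their values were seen. So were BMP2, RB1CC1, EPAS1, HSPA9, SLC25A37, HSCB, GCLC and GCLM, which met the criterion but lay beyond the limit of 10 named a direction.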

How the data were processed

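RNA-seq of 1 parental and 3 NOS2KO SUM159 libraries was analysed. The deposited values are raw gene counts that the authors did not scale. The submitters' processing notes name Trimmomatic 0.36, STAR 2.5.2b, featureCounts of Subread 1.5.2 and GRCh38. The strand setting and the handling of reads that map to several places are not given in the sources used here. Of 57500 identifiers 56898 had a symbol in GENCODE release 29. Counts were fitted over 22511 genes with edgeR 4.0.16 in R 4.3.3 (filterByExpr, TMM, glmQLFit, glmQLFTest, Benjamini-Hochberg), the clones against the parental library, with the spread taken from the clones (2 residual degrees of freedom, common dispersion 0.319). The depth was 90467395 to 122171287 counts. CPM uses TMM-scaled library sizes, and levels per kb use the exon length in the files. Ratios carry Clopper-Pearson 95% intervals, which cover counting error only. With 1 library against 3, the smallest p of an exact permutation test is 0.25. The p-values measure the spread between clones, assumed to hold for parental cells. The fitting code was tested on simulated data of 3 clones against 1 parental library, with 200 changed genes. At a dispersion of 0.319, DESeq2 gave 91 unchanged genes an adjusted p under 0.05, and edgeR 2. By that threshold DESeq2 found 44.5% of the changed genes and edgeR 18.0%. The study's criterion was met by 4.64% of the unchanged genes with edgeR and 7.06% with DESeq2. A dispersion of 0.05 was also simulated, where both tools found 100% of the changed genes. The members and lists were chosen with earlier results of these data known. Named are the members, the 5 nearest patterns to LCN2 and FTH1 (at least 10 CPM, 0.5 counts added), and other iron genes that met the criterion or reached 100 CPM with all 3 clones over 1 log2 away, at most 10 a direction; others were named after their values were seen. Alternatives were other scalings and filters, robust estimation, another prior count and fold threshold, DESeq2 1.42.0, each clone left out or alone, and pseudogene counts added to FTH1 and FTL. Python 3.11.15, scipy 1.17.1 and Biopython 1.88 were used elsewhere.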

Additional observations from a re-analysis of the deposited data

How the results depend on the processing

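Over the other scalings, filters, prior count, DESeq2 and, for the ferritin genes, added pseudogene counts, the log2 fold change of LCN2 lay between -7.68 and -7.39 and that of FTH1 between -3.20 and -3.09. With each clone left out it lay between -9.89 (without clone 1) and -7.13 for LCN2, and between -3.39 and -3.09 for FTH1. LCN2 was at -10.04 in the library labelled clone 5 alone and at -9.93 in clone 6 alone, and FTH1 at -2.89 in clone 6 alone. No fold change of a member that met the criterion changed sign, and the same number of members, 5, met it in every fit. The other iron genes that met it numbered 20 to 26, with 18 to 23 lower. Leaving out 1 clone gave 1466 to 3399 genes of all tested meeting it, the highest without clone 1. Over all tested genes more met the criterion on the lower side with TMM scaling. More met it on the higher side with upper quartile scaling, with DESeq2 and without clone 1. The count with an adjusted p under 0.05 depended most on the test. Among all genes it was 1095 with DESeq2, 6 with no filter (edgeR) and 0 with any clone left out. Among the other iron genes it was 14 with DESeq2 and 1 (CHAC1) with no filter. For the 12 other iron genes within the limit of 10 named a direction, the adjusted p was lowest with DESeq2. There 11 of the 12 were under 0.05 and CBS was at 0.0898. RB1CC1 and EPAS1, named beyond that limit, were not under 0.05 with DESeq2. Upper quartile scaling raised the median over all genes by 0.10 and the fit with no filter by 0.21. The cause of these differences was not tested. Depth limits LCN2 in 2 clones and SLC40A1 in 3 libraries. No paired analysis was possible because there was 1 parental library for 3 clones.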
